A study of Mus musculus with 4 samples.

Results

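Most genes of the mouse are split by introns, and a small share consists of a single exon. The exon blocks examined here are that share as the matching reference of the study holds it: merged RefSeq exons of the mouse genome build mm9 that are shorter than 3000 bases and touch no exon-exon junction of the study's junction table, with genes named Hist left out. The rule found 2497 such blocks among 200217, of which 2477 lay on chromosomes used in the matching and were analysed out of 199684. A further 20 lay on random or unplaced chromosomes, 63 were left out as Hist genes, and 205 blocks without a junction were too long. Lengths ranged from 29 to 2995 bases with a median of 939. Just inside the limit lay Fzd10 at 2988 bases, 9430083A17Rik at 2989 and Dbpht2 at 2995, with 6, 72 and 20 reads in the polyadenylated small intestine library. Just outside it lay Kcna5 at 3005 bases, Pou3f1 at 3011 and Rbm15b at 3014, with 3, 39 and 20 reads there.

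The label "intronless" held for most blocks and not for all. In the GENCODE annotation of the same build, the transcript that fitted the block best had 1 exon for 2248 of the 2477, more than 1 exon for 152, and no annotated exon overlapped the other 77. Some genes described below, such as Defa35, Hspa2, Lypd1, Rfxank and Srr, belong to the 152. A gene name could not be given to 50 blocks. Exons of both strands overlapped in 93.

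The libraries were made from total frozen tissue of small intestine and colon of C57BL/6 mice aged 9 to 10 weeks. The methods of the study name jejunum as the small intestine and distal colon as the colon. From each tissue there was a library of polyadenylated RNA, in which full-length cDNA made with an oligo-dT primer was fragmented and strand was lost, and a library labelled as ribosomal RNA-depleted, in which RNA itself was fragmented and adaptors were ligated so that strand was kept. For this second protocol the methods of the study name poly(A) selection where the labels name ribosomal RNA depletion. The study also gives far more reads for it than these libraries hold, so these may not be the libraries it describes. The labels were followed here. RNA isolation, selection, fragmentation and depth differ together between the protocols, and the mice or tissue pieces may differ too. These cannot be told apart. There was 1 library per tissue and protocol. No replicate error could therefore be calculated within a protocol, and no test was run. A fit of tissue with protocol as a block, which would leave 1 residual degree of freedom, was not made. Ratios are given with exact 95% intervals, and these intervals cover the error of counting reads only, which PCR copies make too narrow. The Wilson intervals of shares treat the blocks or reads of 1 library as independent draws. They cover no variation between libraries or animals and are too narrow where reads share start points. How many mice went into a library, and whether both protocols used the same tissue pieces, is not given in the sources used here.

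Uniquely placed reads numbered 22484041 and 24798934 in the polyadenylated libraries of small intestine and colon, and 2035386 and 3478387 in the rRNA-depleted ones. Values below are always given in this order. The intronless blocks took 102533, 182683, 38132 and 80945 of these reads, which is 0.456%, 0.737%, 1.87% and 2.33%. The labelled tissues were checked on all blocks of 5 small intestine genes (Fabp2, Lct, Sis, Slc2a2, Apoa4) and 4 colon genes (Car1, Atp12a, Aqp8, Slc26a3), all of them found. The first list summed to 30124, 2873, 18100 and 455 reads per 1000000 uniquely placed reads and the second to 288, 68881, 147 and 9173, so each library carried the markers of its label. On the same scale, summed levels of 3 smooth muscle genes were 274, 945, 411 and 1821, those of 3 immune genes 7139, 758, 802 and 803, and those of 5 pancreatic acinar genes 0.133, 233, 1718 and 3.16. The pancreatic sums in both tissues and the immune sum in small intestine thus differed widely between the protocols within a tissue. The part of such differences in content in the protocol ratios below was not tested. In these whole tissues, fewer cells of a type and less RNA per cell cannot be told apart.

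Genes without introns come from several sources. Small nucleolar RNAs (snoRNAs) of the C/D type guide methylation of ribosomal RNA and those of the H/ACA type guide its pseudouridylation, small Cajal body RNAs (scaRNAs) do the same for spliceosomal RNA, and most of them are cut out of the introns of host genes, so that they carry no poly(A) tail of their own. MicroRNA hairpins are processed from longer transcripts. Olfactory, vomeronasal and taste receptors form the largest gene family of the mouse and typically have their coding sequence in one exon. Retrocopies arise when the mRNA of a spliced gene is copied back into the genome, and a further group of single-exon genes codes for transcription factors, claudins and receptors.

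The blocks below were among those with most snoRNA reads. They are shown in mm9 on their own strand with the box D letters CTGA near the 3′ end and, where present, the box C letters TGATGA in capitals. Snord34 lies within Rpl13a, a gene of a ribosomal protein.
Snord34, chr7:52381973-52382038, minus strand: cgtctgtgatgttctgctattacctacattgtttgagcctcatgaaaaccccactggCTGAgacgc
Snord104, chr11:106362305-106362377, plus strand: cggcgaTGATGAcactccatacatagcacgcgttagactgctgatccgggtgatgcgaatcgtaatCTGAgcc
Snord87, chr1:9932551-9932624, minus strand: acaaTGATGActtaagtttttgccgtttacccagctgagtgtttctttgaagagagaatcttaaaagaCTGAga

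Both motifs are known features of C/D snoRNAs and were searched on the strand of the gene only. CTGA within the last 12 bases was found in 94.7% of the 57 Snord blocks searched, against 5.75% of 107240 spliced blocks of 50 to 150 bases. The exact letters TGATGA occurred anywhere in 29.8% of the Snord blocks and in 6.69% of the spliced ones. All 19 Snora blocks, of the H/ACA type, carried ACA within the last 7 bases, against 14.2% of the spliced blocks. A match is a description of letters and not of a site.

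Among the microRNAs, 4 whose hairpins had few reads, mostly in one tissue, are shown. Most polyadenylated reads of the class, 1012 of 1233 and 2466 of 2776, lay on the Mir682 block described below. The mature sequences are taken from RefSeq (GRCm38.p6), 5′ to 3′, with the seed, bases 2 to 8, in capitals.
mmu-miR-194-5p: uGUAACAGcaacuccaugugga
mmu-miR-192-5p: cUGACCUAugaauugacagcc
mmu-miR-215-5p: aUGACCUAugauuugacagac
mmu-miR-196b-5p: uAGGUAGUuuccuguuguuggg
The seed UGACCUA is shared by miR-192 and miR-215, and the hairpin blocks of Mir194-1 (chr1:187137198-187137264 in mm9) and Mir215 (chr1:187137460-187137568) lie 195 bases apart on the plus strand.

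A block was called detected with at least 5 reads and at least 3 different read start points, the rule the study used for transcripts found in one tissue. Detected were 314, 374, 276 and 329 intronless blocks, or 12.7%, 15.1%, 11.1% and 13.3%. With all libraries thinned to the depth of the shallowest the numbers were 174, 202, 276 and 285, so the order of the protocols turned for these blocks. Among all blocks the shares at full depth were 40.4%, 43.6%, 20.3% and 30.2%. Their shares after thinning are not given, so whether the turn is particular to intronless blocks cannot be judged. In total 458 intronless blocks were detected in some library, 184 in all 4, and 1769 had no read in any. The polyadenylated libraries shared 300 detected blocks, with 14 more in small intestine and 74 more in colon. The rRNA-depleted libraries shared 253, with 23 and 76 more.

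Detection differed between the classes. Of 104 snoRNA and scaRNA blocks, 12 and 25 were detected in the polyadenylated libraries and 71 and 72 in the rRNA-depleted ones, which is 11.5% (95% Wilson interval 6.72 to 19.1), 24.0% (16.8 to 33.1), 68.3% (58.8 to 76.4) and 69.2% (59.8 to 77.3). Of 594 other coding blocks, 33.2%, 39.7%, 23.4% and 30% were detected, so here the deeper polyadenylated libraries showed more. Among 72 blocks that resembled a spliced gene closely over most of their length, called retrocopy-like below, 52.8%, 52.8%, 34.7% and 41.7% were detected. Of 1216 chemosensory receptor blocks only 1, 4, 1 and 1 were detected and of 361 microRNA blocks 6, 6, 4 and 5. The smaller classes were 10 other structural RNAs, with 1, 3, 6 and 5 detected, and 120 other noncoding or unnamed blocks, with 59, 62, 30 and 38.

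**Figure D1:**
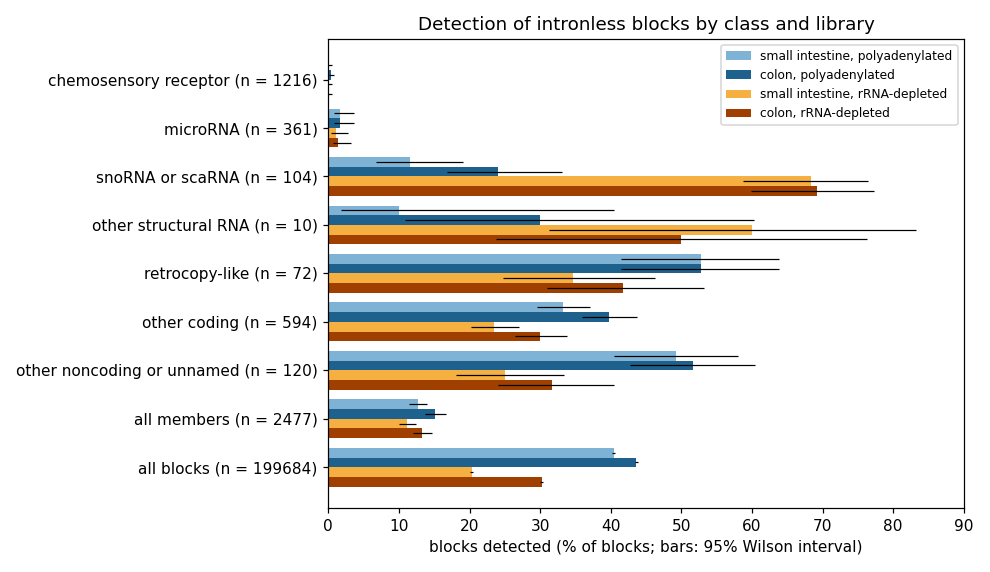
Share of blocks detected (percent, with 95% Wilson intervals) in each of the 4 libraries, by class of intronless block. The snoRNA and scaRNA class stands at 11.5% and 24.0% in the polyadenylated libraries and at 68.3% and 69.2% in the rRNA-depleted ones, while the other coding, retrocopy-like and other noncoding classes have more blocks detected in the polyadenylated library of each tissue.

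The reads were spread over the classes even more unevenly. In the rRNA-depleted libraries the snoRNA and scaRNA blocks took 70.4% and 67.0% of all reads on intronless blocks, and 0.469% and 0.692% in the polyadenylated ones. Other coding blocks took 51.7% and 54.2% in the polyadenylated libraries and 16.5% and 19.2% in the rRNA-depleted ones. Retrocopy-like blocks took 27.5% and 25.1% in the polyadenylated libraries and 2.19% and 2.74% in the rRNA-depleted ones.

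The snoRNA reads came from a few genes. The 4 blocks with most reads, Snord104, Snord34 and Snord87 among them, together held 61.9% of the reads of the class in rRNA-depleted small intestine and 59.3% in colon. Snord34 had 0, 1, 4187 and 13623 reads. It was nearly absent from the polyadenylated libraries, and its levels in the rRNA-depleted ones were 31168 and 59340 RPKM (reads per 1000 bases and 1000000 uniquely placed reads), the highest of any intronless block in colon. Snord87 had 4, 7, 3530 and 4872 reads. Median levels of the detected snoRNA and scaRNA blocks were 3.13, 4.16, 348 and 341 RPKM.

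Host genes were shared by several of the abundant snoRNAs. Snord32a lies 714 bases from Snord34 in Rpl13a and had 0, 1, 952 and 2187 reads. Snord95 and Snord96a lie 1029 bases apart in Gnb2l1, which codes for a scaffold protein of the ribosome, and had 0, 1, 510 and 1498 and 2, 10, 583 and 1366 reads. Further abundant members were Snord82 in Ncl, the nucleolin gene, with 0, 1, 960 and 1916 reads and Snord4a in Rpl23a with 1, 4, 389 and 1800. Of the 58 Snord blocks 55 lay within another annotated gene, as did all 19 Snora blocks. The Snord blocks, with a median length of 67 bases, took 74, 245, 24480 and 47696 reads, and the Snora blocks 47, 144, 1691 and 4492. The 9 Scarna blocks took 8, 11, 574 and 1905.

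The structural RNAs outside these families behaved alike. Rmrp, the RNA of RNase MRP, had 0, 1, 1533 and 5265 reads. Rpph1, the RNA of RNase P, had 11, 15, 331 and 610. Both showed all reads on the sense strand in the rRNA-depleted libraries.

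The reads on snoRNAs were concentrated on preferred start positions. Over the Snord blocks with at least 20 sense reads, a median of 42.1% and 49.4% began at the most used start. They were not confined to it: the Snord34 reads in colon began at 30 positions, where there is room for 32. Sense reads that started within 3 bases of the block start made up 58.6% (58.0 to 59.2) and 78.0% (77.6 to 78.4) of the Snord reads in the rRNA-depleted small intestine and colon libraries, and 14.5% (12.9 to 16.3) and 14.8% (13.8 to 15.9) of the Snora reads. The pooled Snord share was set by the abundant genes, because the median over the Snord blocks with enough reads was 32.1% and 28.3%. The share was 76.1% and 96.1% for Snord34. In Snord87, printed above, it was only 14.9% and 28.3%, and the most used start was base 32, with 42.1% and 29.0%. In Scarna6, a block of 247 bases in Atg16l1, 93.1% of the 1118 colon reads began at base 205. A read of 35 bases can lie wholly inside that block at 213 positions, and the colon reads began at 17. In the Snord blocks there is less room, with 39 such positions in Snord104, where the colon reads began at 33. How far such read numbers come from copies of the same molecule was not tested.

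**Figure D2:**
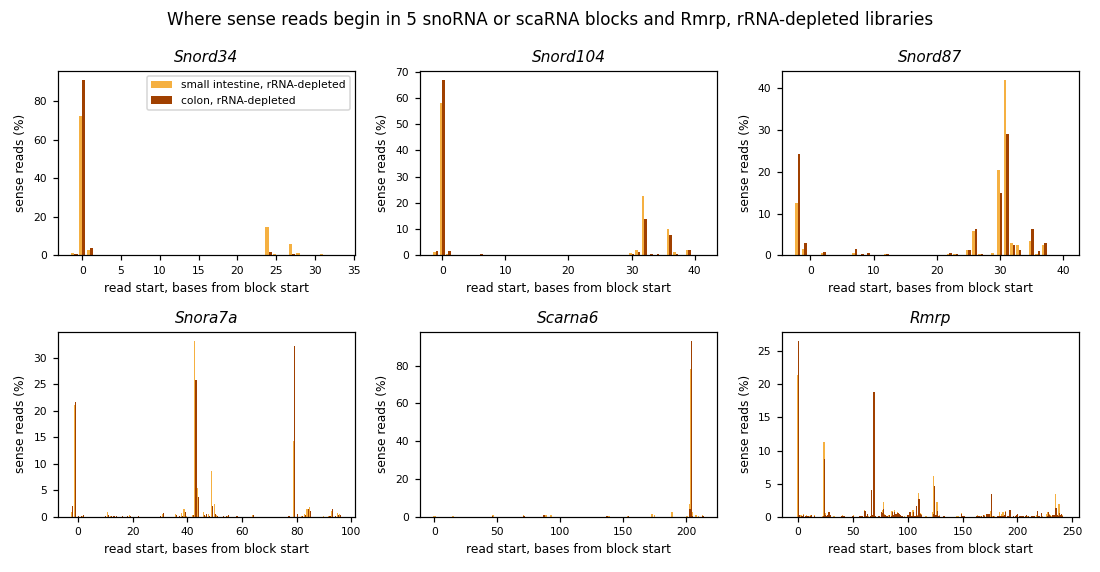
Share of sense reads (percent) by the position of the read start, in bases from the start of the block, for Snord34, Snord104, Snord87, Snora7a, Scarna6 and Rmrp in the rRNA-depleted libraries of small intestine and colon. Snord34 has one dominant start at the 5′ end, with 72.2% and 91.1% of the reads, whereas Snord87 has its most used start at base 32 and Scarna6 at base 205.

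The protocols were compared within each tissue, over blocks with at least 50 reads in the pair, and a ratio of at least 3 in reads per 1000000 uniquely placed reads was called. In small intestine 77 of 231 intronless blocks were higher in the rRNA-depleted library (33.3%, against 14.1% of all blocks) and 39 were lower (16.9%, against 25.8%). In colon 92 of 274 were higher (33.6%, against 19.9%) and 55 lower (20.1%, against 23.6%). Over the same blocks, start points in place of reads gave 62 higher and 26 lower in small intestine and 76 higher and 47 lower in colon. Both tissues gave the same direction for 68 higher blocks of 223, beside 9.63% of all blocks, and for 28 lower ones, beside 16.3%. Of the 68, 40 were snoRNAs or scaRNAs, 4 were other structural RNAs and 20 were other coding genes. The median log2 ratio, with a library without reads set to 3, was 9.48 and 9.15 for the snoRNA class, 0.17 and 0.42 for other coding blocks, -1.13 and -1.17 for retrocopy-like blocks, and -0.52 and -0.17 for all blocks.

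**Figure D3:**
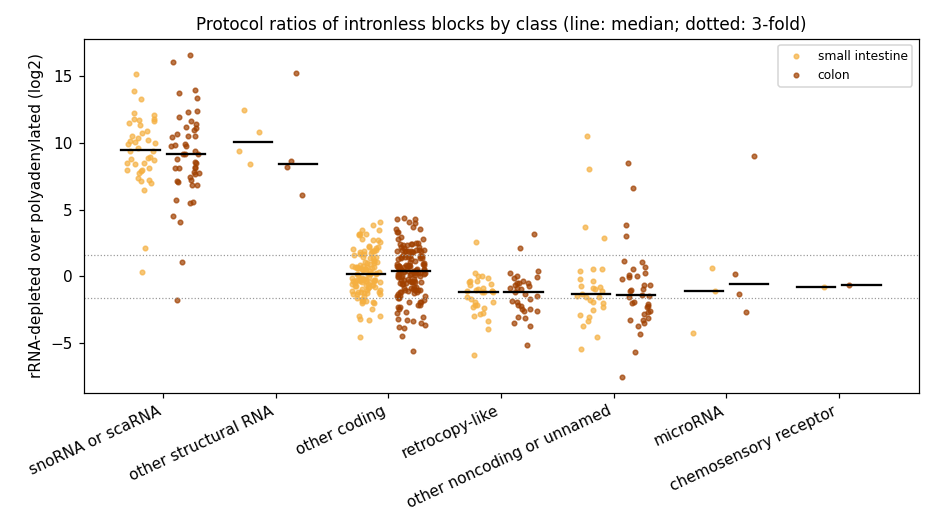
Log2 ratio of reads per 1000000 uniquely placed reads, rRNA-depleted over polyadenylated, for each intronless block with at least 50 reads in the pair, by class and tissue. Bars mark medians, dotted lines a ratio of 3 in either direction, and a library without reads was set to 3 reads. The snoRNA medians are 9.48 and 9.15, the retrocopy-like medians -1.13 and -1.17.

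The coding genes that were higher in the rRNA-depleted libraries included many transcription factors and immediate early genes, a list of 32 of which 9, 10, 9 and 11 were detected. In small intestine 6 of its 7 comparable members were at least 3-fold higher and in colon 8 of 8, with median log2 ratios of 3.11 and 2.62, against 14.1% and 19.9% of all blocks past 3-fold and medians of -0.52 and -0.17. Jund, a subunit of the AP-1 transcription factor, had 197, 324, 196 and 533 reads from libraries of very different depth, a ratio of 11 (8.97 to 13.5) in small intestine and 11.7 (10.2 to 13.5) in colon. Junb, another AP-1 subunit, had ratios of 3.63 (2.93 to 4.48) and 6.99 (5.87 to 8.34). Cebpa, a factor of epithelial and myeloid differentiation, had 8.85 (6.85 to 11.4) and 5.44 (4.53 to 6.52). Sox4, an HMG box factor, had 16.9 (10.6 to 27.3) and 11.6 (8.61 to 15.8).

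Genes of other functions moved the same way. Rhob, a small GTPase, had 211, 402, 168 and 923 reads and ratios of 8.80 (7.14 to 10.8) and 16.4 (14.5 to 18.4). Mgat2, a Golgi enzyme of N-glycan synthesis, had 3.67 (3.03 to 4.44) and 6.99 (5.85 to 8.35). H1f0, a linker histone gene outside the Hist clusters, had 1814, 2535, 605 and 1567 reads and ratios of 3.68 (3.35 to 4.04) and 4.41 (4.14 to 4.70). For Hnrnpa0, an RNA-binding protein, the interval included 1 in both tissues, with a ratio of 0.993 (0.818 to 1.2) in small intestine and 1.17 (0.968 to 1.40) in colon.

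Blocks that were lower in the rRNA-depleted libraries were often copies of spliced genes. Gm6548, 95.3% identical to the elongation factor gene Eef1a1, had 12079, 17818, 167 and 309 reads and was 6.55-fold (5.62 to 7.67) lower in small intestine and 8.09-fold (7.23 to 9.08) lower in colon. Gm11968, 98.5% identical to Rps15a over 55.5% of its length, had 2333, 3840, 5 and 3 reads. Mir682, a block of 96 bases that is 99% identical to Rpl37a, had 1012, 2466, 5 and 54. Gm12060, 91.9% identical to Selk, had 639, 743, 1 and 0. Of the 28 blocks lower in both tissues 10 were retrocopy-like, 9 other coding, 8 other noncoding and 1 a microRNA block. Unique single-exon genes were among them too: Sf3b5, a subunit of the splicing factor SF3b, had 1446, 3659, 24 and 56 reads and was 5.45-fold (3.65 to 8.54) and 9.16-fold (7.04 to 12.2) lower.

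Mismatches bear on these blocks, since the mice were of the reference strain and the reference held exons and junctions only. Across all blocks with at least 50 reads, the median share of reads without a color mismatch was 35.2%, 34.1%, 42.5% and 44.8%, and fewer than 10% of the reads matched without a mismatch in 1.86%, 1.63%, 1.38% and 1.29% of the blocks. Among the intronless blocks the second share was 23.1%, 20%, 8.33% and 9.38%. It was 50% and 48.4% among retrocopy-like blocks in the polyadenylated libraries, and 10.8% and 11.1% among other coding ones. Calml3, a calmodulin-like gene, had 775, 440, 3 and 5 reads, none of them without a mismatch. In the polyadenylated libraries, which keep no strand, 8.0% and 9.09% of its reads matched the sense strand. The medians over intronless blocks with at least 20 reads were 48.2% and 47.7%. Such shares do not give a direction of transcription. Rpl10l, a testis retrogene of a ribosomal protein, had 253, 346, 6 and 1 reads, again none without a mismatch. Whether such reads came from the block or from a similar sequence was not tested.

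For the tissues, the polyadenylated pair gave 236 comparable intronless blocks. At least 3-fold higher in colon were 34 (14.4%, against 9.54% of all blocks) and at least 3-fold higher in small intestine were 9 (3.81%, against 7.89%). In the rRNA-depleted pair, of 163 blocks 17 were higher in colon (10.4%, against 16.3%) and 4 in small intestine (2.45%, against 9.83%). With the median ratio of all blocks set to 1, the numbers were 26 and 12 in the first pair and 12 and 10 in the second. The shares of all blocks under that setting are not given. The median log2 ratio of colon over small intestine was 0.54 in the polyadenylated pair and 0.38 in the rRNA-depleted one, with 0.21 and 0.38 for all blocks, so values are to be read against that shift. The share of intronless blocks higher in colon thus lay above the background in one pair and below it in the other.

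Comparable in both pairs were 102 blocks. Of these 61 had both ratios above 1, 20 both below 1 and 20 on opposite sides, and for the other 1 the log2 ratio of the polyadenylated pair rounded to 0. At least 3-fold higher in colon in both pairs were 9, beside 6.96% of all blocks, and none was at least 3-fold higher in small intestine in both, beside 6.58%.

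**Figure D4:**
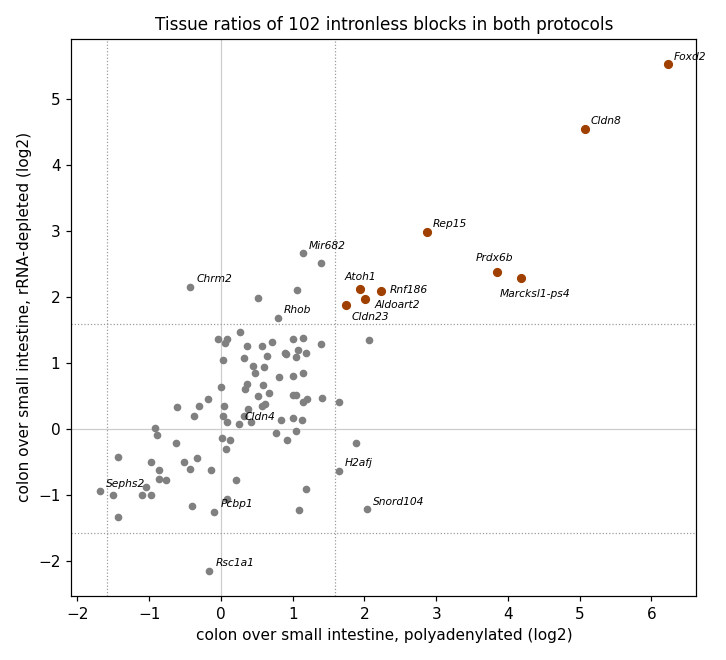
Log2 ratio of colon over small intestine in the polyadenylated pair (x axis) and the rRNA-depleted pair (y axis) for the 102 intronless blocks comparable in both; dotted lines mark a ratio of 3 in either direction, colored points the 9 blocks past it in both pairs, and a library without reads was set to 3 reads. Foxd2 and Cldn8 lie farthest to the upper right and no block lies past both lines at the lower left.

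Among the 9 were tight junction genes, transcription factors and genes of the epithelium. Claudins seal the space between epithelial cells. Cldn8 (chr16:88561071-88563428) had 59, 2183, 8 and 320 reads, or 1.11, 37.3, 1.67 and 39.0 RPKM. Its colon levels were close to each other in both protocols, and the ratio was 33.5 (25.9 to 44.2) and 23.4 (11.7 to 54.7). Cldn23, another claudin (chr8:36887766-36889613), had 268, 988, 48 and 302 reads with ratios of 3.34 (2.92 to 3.84) and 3.68 (2.71 to 5.10), just past the limit and below it once the median ratio of all blocks was set to 1. Cldn4, by contrast, had 1296, 1697, 356 and 640 reads and ratios of 1.19 (1.10 to 1.28) and 1.05 (0.923 to 1.2). Of the 13 claudins and connexins 4, 6, 3 and 4 were detected.

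Foxd2, a forkhead factor (chr4:114578885-114581503), had 1, 83, 0 and 237 reads. Only 1 of its reads came from small intestine, with a ratio of 75.3 (13.1 to 3008) in the polyadenylated pair and at least 46.2 in the rRNA-depleted pair, where the count of 0 was set to 3 reads. Atoh1, the factor that directs intestinal progenitors to the secretory lineage (chr6:64679140-64681229), had 132, 557, 39 and 290 reads. Its ratios were 3.83 (3.16 to 4.66) and 4.35 (3.11 to 6.25), and both colon levels, 10.7 and 39.9 RPKM, exceeded those of small intestine, 2.81 and 9.17 RPKM.

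Rnf186, a RING-type ubiquitin ligase of the intestinal epithelium (chr4:138523027-138524280), was among the most abundant intronless blocks, with 2833, 14624, 137 and 999 reads or 100, 470, 53.7 and 229 RPKM. Its ratios were 4.68 (4.5 to 4.87) and 4.27 (3.57 to 5.14). Rep15, a Rab15 effector (chr6:146981059-146982040), had 1249, 10073, 28 and 380 reads and ratios of 7.31 (6.89 to 7.76) and 7.94 (5.41 to 12.1), although its level was 4.04-fold and 3.72-fold lower in the rRNA-depleted libraries.

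The last 3 of the 9 are copies of other genes. Marcksl1-ps4, 91.2% identical to Marcksl1, had 22, 439, 10 and 83 reads and ratios of 18.1 (11.8 to 29.2) and 4.86 (2.51 to 10.5). Prdx6b, 90.1% identical to the peroxiredoxin gene Prdx6 over 50.1% of its length, had 775, 12357, 9 and 80 reads and ratios of 14.5 (13.4 to 15.6) and 5.2 (2.61 to 11.8). Aldoart2, 87.9% identical to the aldolase gene Aldoa, had 459, 2038, 19 and 127 reads and ratios of 4.03 (3.64 to 4.46) and 3.91 (2.40 to 6.71). Reads without a mismatch were 76, 938, 0 and 2 for Prdx6b and 0, 9, 0 and 6 for Aldoart2. Counted from such reads alone, 7 of the 9 kept a ratio of at least 3 in both pairs, and these 2 did not. With the median ratio of all blocks set to 1, Aldoart2 and Cldn23 fell short. Counted by start points, which saturate in abundant blocks, Foxd2, Cldn8 and Atoh1 were left.

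**Figure D5:**
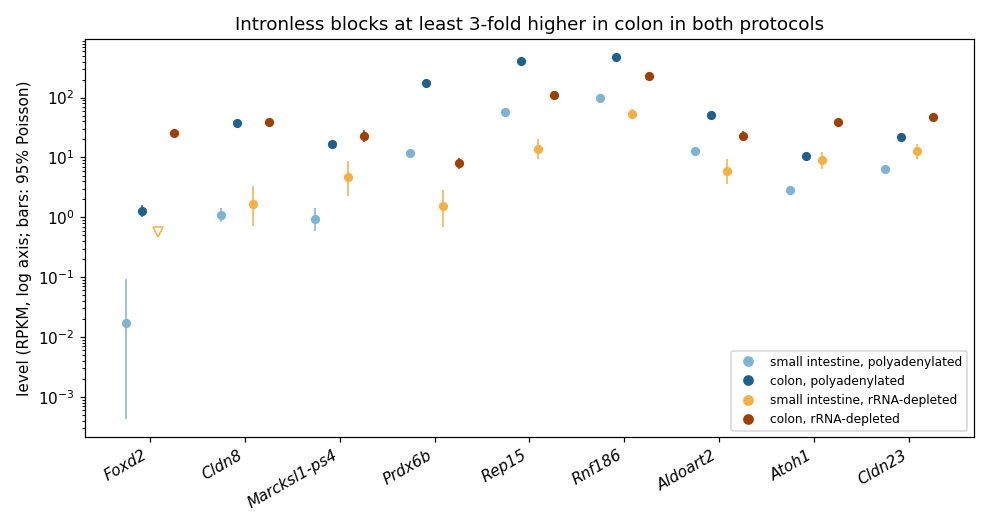
Level (RPKM, log axis, with exact 95% Poisson intervals) of the 9 intronless blocks at least 3-fold higher in colon in both protocols, 1 point per library; the open triangle marks the floor of 3 reads for a library without reads. In each of the 9 the colon point lies above the small intestine point of the same protocol, and the distance is largest for Foxd2 and Cldn8.

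Further blocks were much higher in colon in the polyadenylated pair and had too few reads in the other. Omp, the olfactory marker protein gene, which lies within Capn5, had 2, 385, 5 and 38 reads and a ratio of 175 (48.0 to 1446), with 4.45 (1.75 to 14.5) in the rRNA-depleted pair. 2310079G19Rik, 63.6 kb from Cldn8, had 0, 441, 0 and 14 reads and was at least 133-fold higher. E130012A19Rik had 4, 398, 4 and 26 reads and a ratio of 90.2 (35 to 333). Pbp2 had 0, 133, 0 and 0 reads, at least 40.2-fold higher in polyadenylated colon and without a read in the rRNA-depleted libraries. Niacr1, the nicotinic acid and butyrate receptor, had 10, 110, 2 and 7 and a ratio of 9.97 (5.22 to 21.4).

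The rRNA-depleted pair added genes that did not pass in the other. Chrm2, the M2 muscarinic receptor of smooth muscle, had 89, 73, 7 and 53 reads and ratios of 0.744 (0.538 to 1.02) and 4.43 (2.01 to 11.6). Ndn, which codes for necdin, had 83, 242, 6 and 59 reads and ratios of 2.64 (2.05 to 3.43) and 5.75 (2.49 to 16.3). Rhob had 1.73 (1.46 to 2.05) and 3.21 (2.72 to 3.81), the second below 3 with the median ratio of all blocks set to 1. The sums of the smooth muscle markers given above were also higher in colon in both pairs, and their part in these ratios was not tested.

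Fewer intronless genes were at least 3-fold higher in small intestine than in colon. In the rRNA-depleted pair the numbers, 12 in colon and 10 in small intestine, were close once the median ratio of all blocks was set to 1. Whether that balance is particular to intronless genes cannot be judged without the shares of all blocks under the same setting. Sephs2, the selenophosphate synthetase needed for selenoproteins, had 3959, 1353, 309 and 274 reads and was 3.23-fold (3.03 to 3.44) higher in the polyadenylated pair and 1.93-fold (1.63 to 2.28) in the other. It did not reach 3-fold by start points. Bambi-ps1, 86.7% identical to Bambi over 68.7% of its length, had 539, 36, 25 and 7 reads, 16.5-fold (11.8 to 23.8) and 6.10-fold (2.57 to 16.7) higher, the second from fewer than 50 reads. Defa35, a Paneth cell defensin, had 680, 0, 8 and 0 reads and was at least 250-fold higher, but the block is 97.7% identical to Defa5, all of its reads carried a mismatch, and with at most 1 mismatch allowed 0, 0, 0 and 0 reads were left, so that no difference could be seen. Gk2, a glycerol kinase retrogene, had 178, 15, 6 and 11, with 2.25% of the reads of the first library free of mismatches.

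In the rRNA-depleted pair the 4 blocks past 3-fold towards small intestine were Snord66, an unnamed block, Snord22 and Rsc1a1. Snord66, in Eif4g1, had 0, 0, 180 and 59 reads and was 5.21-fold (3.87 to 7.12) higher. The unnamed block (chr17:39981081-39981190) had 0, 0, 405 and 149 and was 4.65-fold (3.84 to 5.64) higher. Snord22, in Snhg1, had 3, 13, 262 and 97 and was 4.62-fold (3.64 to 5.89) higher. Snord72, in Rpl37, stood on the other side with 0, 0, 10 and 57 reads, 3.34-fold (1.69 to 7.33) higher in colon and below 3 with the median ratio of all blocks set to 1. It also fell short of 3-fold by start points, with at most 1 mismatch and without a mismatch. The 3 named snoRNA blocks are printed to show what was counted, with CTGA in capitals.
Snord66, chr16:20684329-20684384, plus strand: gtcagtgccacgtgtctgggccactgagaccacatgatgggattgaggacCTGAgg
Snord22, chr19:8800356-8800481, plus strand: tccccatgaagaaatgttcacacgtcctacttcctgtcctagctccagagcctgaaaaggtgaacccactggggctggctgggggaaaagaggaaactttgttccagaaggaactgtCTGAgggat
Snord72, chr15:5068421-5068479, plus strand: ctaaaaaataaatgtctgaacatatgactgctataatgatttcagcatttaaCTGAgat
Of the Snord66 reads in small intestine 59.4% began at 1 position. Snord66 reads began at 15 and 12 positions in all, where a read can lie wholly inside the block at 22. Of the Snord72 reads in colon 96.5% began at 1 position. With 1 and 2 start points Snord72 was not detected by the rule of 3 start points. It is still among the 17 blocks counted as higher in colon. Snord22 reads began at 27 and 20 positions, where there is room for 92, with 19.5% and 25.8% at the most used. Counted by start points, Snord66, the unnamed block and Snord22 fell short of 3-fold and Rsc1a1 alone of the 4 was left. Rsc1a1, a regulator of the sodium-glucose cotransporter, had 326, 322, 127 and 49 reads, a level 4.43-fold (3.16 to 6.29) higher in rRNA-depleted small intestine and nearly equal in the polyadenylated pair, with a ratio of 0.896 (0.765 to 1.05). Its block lies within Ddi2 on the same strand, so reads of both genes could not be separated.

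Few microRNA hairpins were seen. For the 306 hairpins matched by name no read could come from a mature form alone, since their longest mature sequence has 27 bases and a read 35. The other blocks of the class were not checked for this. Of 361 blocks 298 had no read. Mir215 had 46, 3, 2 and 0 reads, 16.9-fold (5.44 to 85) more in polyadenylated small intestine than in colon. Its neighbor Mir194-1 had 2, 0, 12 and 0, and all 12 rRNA-depleted reads began at base 15 of the block. By the rule of 3 start points Mir194-1 was thus not detected in any library. Mir192, with the seed of miR-215, had 8, 3, 0 and 0 reads. Mir196b, within the Hoxa cluster, had 0, 15, 0 and 1 reads and was at least 4.53-fold higher in polyadenylated colon. Mir215, Mir194-1, Mir192 and Mir196b all stayed below the 50 reads in a pair asked for in the other comparisons. Reads on the hairpins Mir677 and Mir23b, with 0, 1, 31 and 74 and 0, 1, 22 and 27, were nearly restricted to the rRNA-depleted libraries, and 61.3% and 86.5% of those on Mir677 began at 1 position. On Mir23b 94.4% and 100% of the sense reads did, from 2 and 1 start points, so Mir23b was not detected in colon by the rule of 3 start points.

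The receptor families had almost no reads. Of the 1216 olfactory, vomeronasal and taste receptor blocks 1174 had no read. Olfr165 was the exception with 112, 76, 6 and 7 reads, or 5.29, 3.25, 3.13 and 2.14 RPKM, and was the one chemosensory block detected in all 4 libraries. Its sequence is 90.1% identical to Olfr164, and 34.8%, 19.7%, 50% and 42.9% of its reads had no mismatch. Of 33 other G protein-coupled receptors 6, 5, 2 and 3 were detected and 12 had no read. Gpr151 had 121, 0, 7 and 4 reads and was at least 44.5-fold higher in polyadenylated small intestine.

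Other families known for genes without introns were just as uneven. Of 17 type I interferon genes 16 had no read, and of 48 keratin-associated protein genes 43, while Krtap3-1 had 3, 72, 0 and 0 reads. Among the 3 Hsp70 genes Hspa2 had 239, 148, 7 and 24 reads, and the stress-induced Hspa1b and Hspa1a had only 13, 26, 3 and 9 and 10, 18, 2 and 6. Hspa1a and Hspa1b are 99.2% identical over most of their length, so reads in the shared stretches had been removed as not unique. Of 7 beta protocadherins 1 was detected, in polyadenylated colon. By contrast 10, 12, 8 and 10 of the 13 genes listed as ubiquitous were detected, such as Pcbp1, an RNA-binding protein, with 731, 758, 118 and 84 reads. Of 23 retrogenes known from testis, 5, 7, 3 and 2 were detected, with 1.05% and 1.03% of their reads free of mismatches in the polyadenylated libraries.

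Strand was kept in the rRNA-depleted libraries, where 98.9% and 99.3% of the reads on named intronless blocks lay on the sense strand, and not in the polyadenylated ones, with 47.5% and 46.0%. Among blocks with at least 20 reads, 131 of 145 in small intestine and 190 of 209 in colon had more than 95% sense reads, which is 90.3% and 90.9%, against 93.5% and 95.9% of all blocks. Below 50% lay 3 (2.07%, against 1.63% of all blocks) and 5 (2.39%, against 1.19%). None of the blocks without an annotated exon on the other strand, 122 and 176, was below 50%.

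The 5 blocks with the lowest sense shares among those with at least 50 reads lay opposite another gene, except Gm5766. Only Lypd1, in both libraries, and Rfxank, in colon, were below 50%. Lypd1, with 1065, 435, 40 and 51 reads, had no sense read in either rRNA-depleted library, and its block overlaps Gpr39 on the other strand, so that all its strand-resolved reads ran in the direction of Gpr39. Rfxank, opposite Nr2c2ap, had 58.1% and 42.7% sense reads, and Srr, opposite Tsr1, 74.2% and 52.7%. Zfp784, opposite 4632433K11Rik, had 59.4% and 86.5%. For these genes the reads of the polyadenylated libraries could not be assigned to a strand. Gm5766 was the one of the lowest 5 without an annotated gene opposite, with 72.7% and 92.5% and with 0% and 6.72% of reads free of mismatches.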

How the data were processed

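Matched reads of 4 libraries, 1 per tissue and protocol, had been deposited by the authors as positions, strands and mismatches of single reads. The authors had matched 35 colors per SOLiD read to merged RefSeq exons and exon-exon junctions of mm9 with up to 3 color mismatches and had kept uniquely placed reads, so a read was unique only among exons and junctions. The pipeline was corona, its version is not given in the sources used here. Positions of exons and junctions came from further tables by the authors.

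A read was given to the block that holds its middle base. RPKM used 1000 bases and 1000000 uniquely placed reads. Numbers of reads and start points equal those in the authors' reports. Depth per library stands in the report; 3 reads, the floor for a count of 0, equal 0.133, 0.121, 1.47 and 0.862 RPKM for a block of 1000 bases. Names came from GENCODE M1 on the same build for 2248 blocks, from RefSeq sequences for 166, and from RefSeq lengths and neighbours for 13. A block was retrocopy-like with at least 85% identity to a spliced gene over at least 80% of its length (blastn 2.17.0). Shares have Wilson intervals, ratios exact intervals from the binomial (Clopper-Pearson), all at 95%. Motifs were searched by exact letters. A few results are not reported here.

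Members and gene lists were chosen with earlier results of these data known. Genes named were the 10 with the highest RPKM per library, up to 10 past 3-fold in both pairs, the 5 most extreme protocol ratios, the 5 lowest sense shares among those with at least 50 reads, and up to 4 per list; not all of these are described, and further genes, such as Omp, 2310079G19Rik, Pbp2, Sephs2, Defa35, Chrm2 as a tissue difference, Rsc1a1, Snord66, Snord22, Snord72, Mir215, Mir194-1, Mir192 and Mir196b, were chosen after their values were seen. Alternatives were other read minimums, folds, mismatch limits, thinning, start points and median-of-ratios size factors; counts from reads without a mismatch, from blocks with 1 exon in GENCODE and with the compared blocks held the same were added after seeing the data. The code was tested on simulated data. Python 3.11.15, numpy 2.4.6, pandas 2.3.3, scipy 1.17.1, pysam 0.24.0 and matplotlib 3.10.9 were used.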

Additional observations from a re-analysis of the deposited data

Results flagged for a closer look

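Snord104, one of the blocks with most reads, had 22, 100, 5581 and 4099 reads and differed in opposite directions between the tissues in the 2 protocols. The ratio of colon over small intestine was 4.12 (2.58 to 6.87) in the polyadenylated pair and 0.430 (0.413 to 0.448) in the rRNA-depleted pair. In rRNA-depleted small intestine 9.89% of its reads had no mismatch, against 22.1% in colon and 45.5% and 45.0% in the polyadenylated libraries. The log2 ratio of the rRNA-depleted pair, -1.22 from all reads, was -0.84 with at most 1 mismatch, -1.60 with the median ratio of all blocks set to 1 and -0.19 by start points. Start points can show little here, since 5581 and 4099 reads began at 22 and 33 of them.

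Snord22, with 3, 13, 262 and 97 reads, gave 3.93 (1.08 to 21.5) and 0.217 (0.170 to 0.274). Its polyadenylated reads fell short of the 50 asked for in a pair. With at most 1 mismatch 2, 3, 172 and 54 reads were left, so the polyadenylated counts were then close. Snord104 and Snord22 are listed because, from all reads, the protocols gave opposite directions, each with an interval that leaves out 1. With 1 library per tissue and protocol the difference itself was not tested.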

How the results depend on the processing

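With 1 read as the limit, 486, 565, 466 and 505 blocks were detected, and with the polyadenylated libraries thinned to the shallowest one 174 and 202. A 2-fold limit gave 73 blocks higher in colon and 15 in small intestine in the polyadenylated pair, and 44 and 15 in the rRNA-depleted pair. A limit of 5 reads in the pair gave 84 and 19, and 48 and 32. For the protocols the same limit gave 193 and 199 blocks higher in the rRNA-depleted library of small intestine and colon. A 10-fold limit gave 51 higher and 8 lower in small intestine and 14 lower in colon. With start points in place of reads and the minimum of 50 set on start points, there were 5 blocks higher in small intestine in the polyadenylated pair, 4 in colon and 1 in small intestine in the other, 19 higher and 25 lower between protocols in small intestine, and 23 higher and 43 lower in colon. Over the blocks compared by reads, a choice added after seeing the data, start points gave 62 and 26 and 76 and 47, so the turned balance came with the minimum. For the rRNA-depleted tissue pair they gave 6 and 1. Size factors gave 12 higher in colon and 10 in small intestine in the rRNA-depleted pair. At most 1 mismatch, with the minimum of 50 on such reads, gave 4 blocks higher in polyadenylated small intestine and 11 in rRNA-depleted colon. No mismatch, added after seeing the data and with the minimum on such reads, gave 22 and 4 in the polyadenylated pair, 8 higher in rRNA-depleted colon, 37 higher and 19 lower between protocols in small intestine and 57 and 26 in colon. Over the blocks compared by all reads it gave 45 and 7 in the polyadenylated pair, 14 and 8 in the other, and 104 and 23 and 118 and 33 between protocols. At most 1 mismatch gave 42 and 10 and 19 and 5 in the tissue pairs. These tissue totals include blocks not called from all reads. In the polyadenylated pair, 30 of the 34 colon calls and 6 of the 9 small intestine calls were kept with at most 1 mismatch, and 30 and 5 with none. In the rRNA-depleted pair 16 and 11 of the 17 colon calls were kept, and all 4 small intestine calls under both. Blocks below 50% sense numbered 13 and 16 with at least 5 reads, 1 and 3 by start points, and 0 and 0 without an annotated exon on the other strand. In all, 52 alternative counts stayed within 1.5 times of their value and 46 did not. Thinning turned the order of the protocols for intronless blocks, since the rRNA-depleted libraries then had 276 and 285 of them detected against 174 and 202. Of 100 log2 tissue ratios of named blocks, 24 changed sign under at least 1 of 3 settings: 12 with size factors, 20 by start points and 5 with at most 1 mismatch. Among them were Snord34 (0.93 to -0.26) and Rmrp (1.01 to -0.20) by start points and Cldn4 (0.07 to -0.31) with size factors, all in the rRNA-depleted pair. None of the 24 had reached 3-fold.

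Of the 9 blocks higher in colon in both pairs, 7 kept both ratios past 3 under size factors (not Aldoart2 and Cldn23), 9 with at most 1 mismatch, 7 with none, and 3 by start points (Foxd2, Cldn8 and Atoh1). The labels give no replicate numbers, so no pairing by replicate was made. Tissues were compared within each protocol, and a fit over both protocols with protocol as a block was not run. The depth of the rRNA-depleted libraries limits what can be seen there: 0 reads on a block of 1000 bases allow up to 1.47 and 0.862 RPKM.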
